A study of Mus musculus with 6 samples.

Results

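The 38 genes described here were listed as activity-induced immediate early genes, a class that neurons transcribe within minutes of strong synaptic input. How fast each of the 38 responds was not tested. They were taken by symbol from a deposited table of 30707 genes, and all 38 were found, each in a single row. The unit is FPKM (reads per exon length and library size), measured in 6 samples of mouse hippocampus. In 3 control samples the hippocampus had been infected with a control virus, and in 3 knockdown samples with a virus that knocks down SFRS8 (Sfswap), a regulator of pre-mRNA splicing that the title of the study ties to memory. Tissue and species are the same for all 6 samples, and all 6 were infected. The sources used here do not give the strain, age, promoter or type of the viruses, the time after infection, or what the mice did before the tissue was taken, and they do not say whether each sample came from a separate animal. The p-values below therefore reflect only sample-to-sample spread, and that spread may be technical. Where 3 values are given for a group, they stand in the order of samples 1, 2 and 3.

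Immediate early genes are switched on without new protein synthesis. Calcium entering through NMDA receptors and voltage-gated channels activates the ERK and CaM kinase cascades, which act on factors already bound to DNA, mainly CREB, SRF with its partners, and MEF2. The first products are transcription factors of the FOS, JUN, EGR and NR4A families and NPAS4, together with proteins that act at the synapse, such as ARC, and with phosphatases and kinases that shut the response down. In hippocampus their transcripts rise after novelty, learning or seizures and fall back within hours, so the level in a tissue sample also depends on the time and state at which it was taken.

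The libraries held 16622948 to 18097344 reads, as recovered from the FPKM values, and 3 reads on a gene of 1 kb were worth 0.166 to 0.18 FPKM, a limit that covers counting error only. Sfswap itself had 16.7, 18.5 and 19.2 FPKM among controls against 9.79, 11.3 and 9.58 after knockdown, without overlap, a ratio of 0.564 (adjusted p = 0.0432 in limma, exact permutation p = 0.1). Markers of hippocampal neurons were present in every sample. Cell type markers moved with the groups as well: all 7 microglial and all 7 endothelial and mural markers were higher in each knockdown sample than in each control, with summed levels of 425 to 672 against 258 to 345 FPKM and of 70.4 to 92.9 against 44.7 to 50.2 FPKM. Of 8 dentate granule cell markers, 4 were lower without overlap, and of 7 thalamic and striatal markers 4 were higher without overlap. Those 4 were Ramp3, Prkcd, Tcf7l2 and Drd1, at ratios of 4.75, 3.05, 4.79 and 3.11, while Ppp1r1b, Drd2 and Rgs9 overlapped. For comparison, 18.0% of the 14012 genes tested below were higher without overlap and 11.8% lower. Dentate markers summed to 69.4, 86.7 and 124 FPKM in knockdown samples 1 to 3 against 122 to 153 in controls, and thalamic and striatal markers to 73.4 to 103 against 37.4 to 44.4. None of the 29 genes in these 4 lists was at 0 in any sample. Choroid plexus markers summed to 49.4, 69.9 and 3060 FPKM among controls against 4630, 4310 and 1180 after knockdown. In bulk tissue, more or fewer cells of a type in the sample and more or less RNA per cell cannot be told apart. The part of these markers in the results below was not tested.

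Few immediate early genes separated knockdown from control samples. A single gene, Sik1, was called higher in the knockdown samples at the threshold given below, and none was called lower. All 38 genes reached the mean of 1 FPKM needed for testing, and each was read from a limma fit to log2(FPKM + 1) over 14012 genes, with Benjamini-Hochberg adjusted p under 0.05 as the threshold. That fit called 1.2% of all genes higher and 0.228% lower (1.43% in either direction), against 1 of 38 (2.63%) and 0 of 38 here. With p left unadjusted, 5 of the 38 (13.2%) passed 0.05 as higher and 1 (2.63%) as lower, against 15.7% and 7.98% of all genes tested, or 6 (15.8%) against 23.7% in either direction. Log2 fold changes (of FPKM + 1, positive where knockdown samples were higher) were positive for 23 genes and negative for 15, and ran from -0.47 for Egr4 to 0.83 for Sik1. The median was 0.09. Over all 14012 genes tested it was 0.02, with 7449 positive and 6563 negative. Groups did not overlap for 3 of the 38 (7.89%), all 3 with the knockdown samples higher, whereas 18.0% of all genes tested were higher and 11.8% lower without overlap, 29.9% in all.

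**Figure D1:**
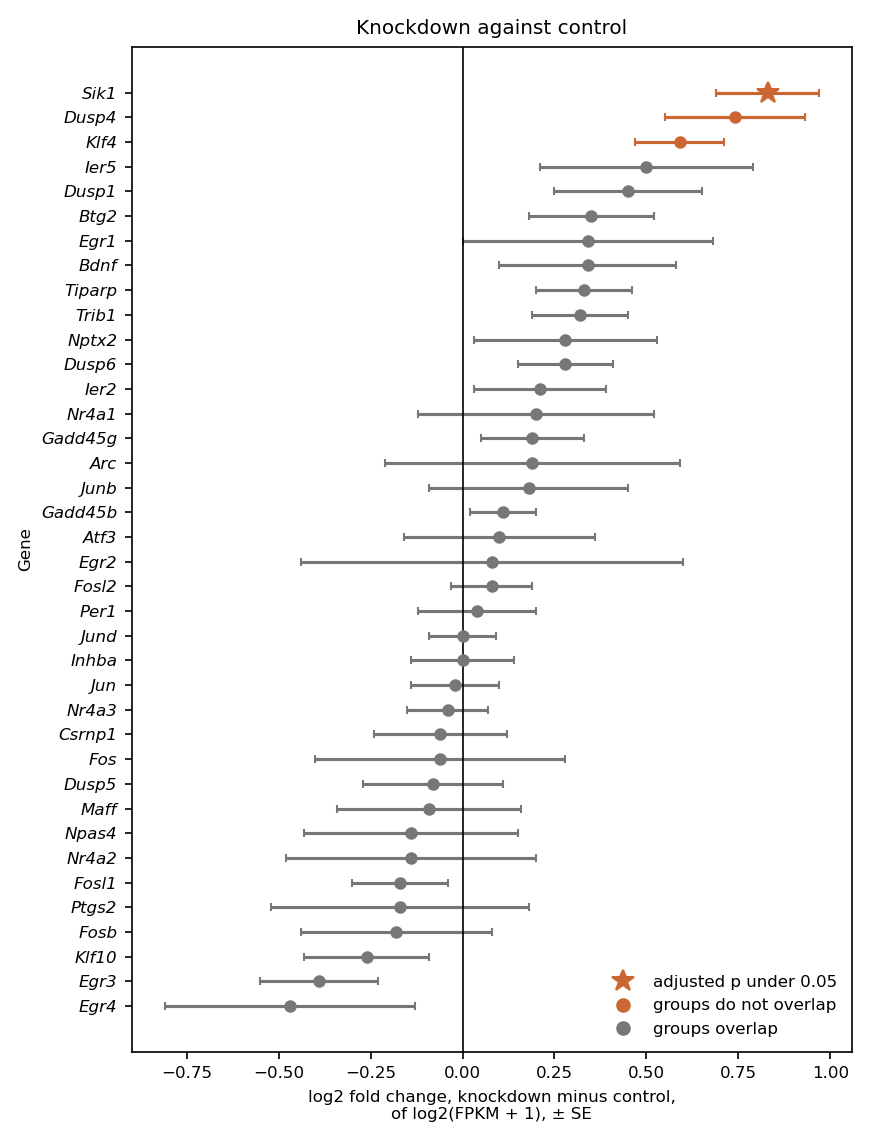
Log2 fold change (horizontal axis, knockdown minus control on log2(FPKM + 1), bars ± SE, 3 samples against 3) of each of the 38 genes, in order of size. The star marks Sik1, at 0.83, and the other orange points mark Dusp4 and Klf4, whose groups do not overlap; the lowest value is that of Egr4, at -0.47.

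Sik1, Klf4 and Dusp4 were the genes whose groups stood apart. Sik1 (ENSMUSG00000024042, mm10 chromosome 17, 31844248 to 31855792, minus strand) encodes salt-inducible kinase 1, a CREB target that phosphorylates the CRTC coactivators and so keeps them out of the nucleus. Its level was 5.48, 4.31 and 3.96 FPKM among controls against 10.5, 8.32 and 7.97 after knockdown. The lowest knockdown sample lay well above the highest control. The means were 8.92 ± 1.35 against 4.58 ± 0.794 FPKM (SD, n = 3 in each group), a ratio of 1.95, and the log2 fold change was 0.83 (SE 0.14, adjusted p = 0.0472 in limma). By exact permutation of the 6 labels, two-sided, p was 0.1, and no smaller value is possible with 3 against 3. The adjusted p ran from 0.04 to 0.151 over the 15 alternative settings in which Sik1 could be fitted, and the gene was called in 3 of them, while its log2 fold change stayed between 0.72 and 0.95. It was called in none of the 6 fits that left out a sample, at adjusted p-values of 0.0616 to 0.151.

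Klf4 (ENSMUSG00000003032, chromosome 4, 55527143 to 55532466, minus strand) encodes a zinc finger transcription factor that is induced by activity in neurons and is also expressed in endothelium. It stood at 2.34, 1.59 and 1.93 FPKM among controls against 3.64, 3.31 and 3.33 after knockdown. The 3 knockdown values lay close together and above all controls, on 168 to 197 reads against 88 to 123. The ratio of the means was 1.75 and the log2 fold change 0.59 (SE 0.12, adjusted p = 0.0542 in limma on FPKM), and the adjusted p was 0.0417 in limma's voom on the recovered reads. The 7 endothelial and mural markers, for comparison, stood at ratios of 1.69 (Tek) to 1.9 (Cdh5). Pecam1 was among them, at 5.25 ± 0.463 against 3.02 ± 0.227 FPKM (SD, n = 3), a ratio of 1.74. Their part in the level of Klf4 was not tested.

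Dusp4 (ENSMUSG00000031530, chromosome 8, 34807297 to 34819894, plus strand) encodes a nuclear phosphatase that inactivates MAP kinases. Its values were 12.7, 10.9 and 11.8 FPKM among controls against 22.3, 14.5 and 25.7 after knockdown. Knockdown sample 2 lay nearer to the controls than to the other two knockdown samples. The ratio of the means was 1.77 and the log2 fold change 0.74 (SE 0.19, adjusted p = 0.0851 in limma), and the adjusted p was 0.0359 without knockdown sample 2.

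**Figure D2:**
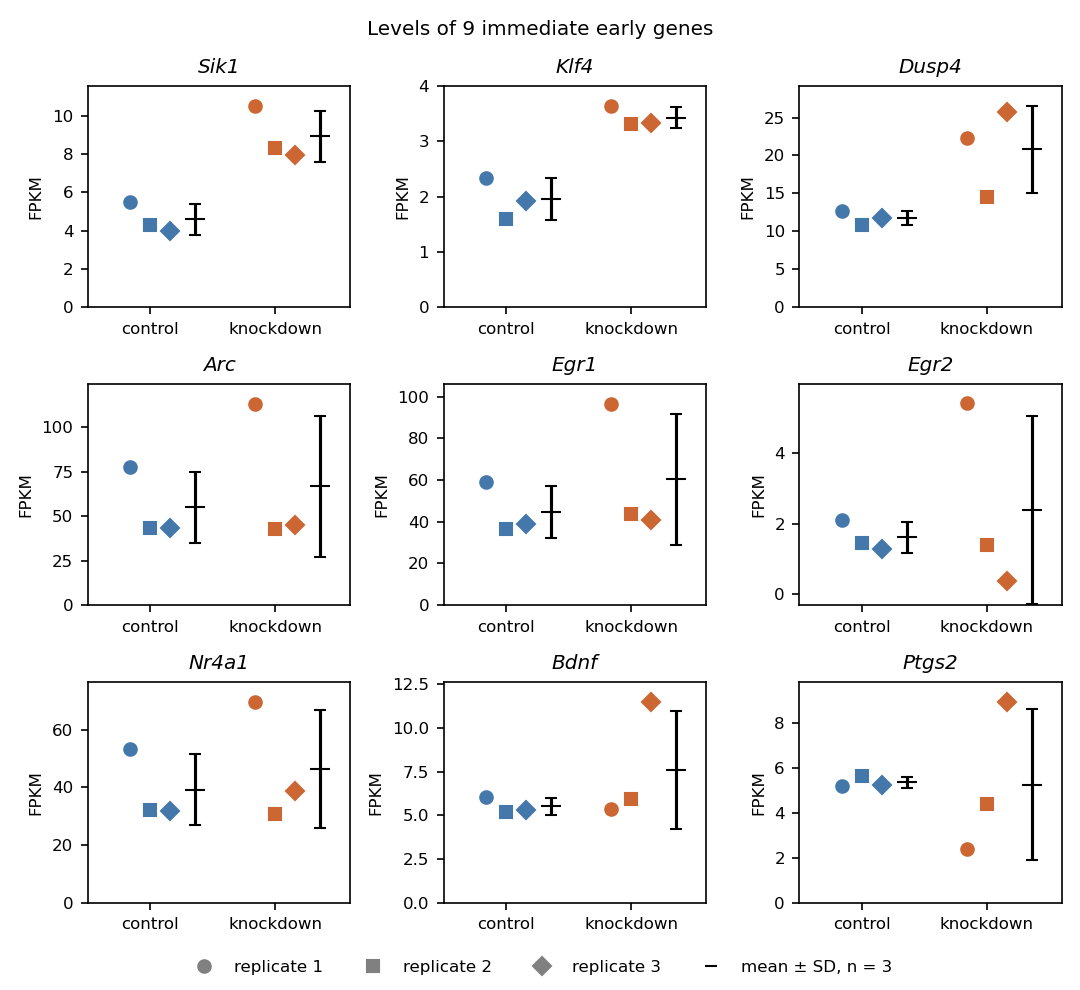
FPKM (vertical axes) of 9 genes in each sample, with control samples in blue, knockdown samples in orange, the marker shape giving the replicate, and the black bars the mean ± SD (n = 3). Sik1, Klf4 and Dusp4 have groups that do not overlap; in Arc, Egr1, Egr2 and Nr4a1 replicate 1 is the highest sample of each group; in Bdnf and Ptgs2 the highest sample is knockdown sample 3.

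For most of the other genes the samples within a group differed more than the groups did. Knockdown sample 1 held the highest of the 6 values for 22 of the 38 genes (57.9%), as it did for 24.6% of all genes tested. Control sample 1 was the highest control for 30 of 38 genes (78.9%, against 32.2% of all genes tested), and knockdown sample 1 the highest knockdown sample for 26 (68.4%, against 35.7%). Both held at once for 22 genes (57.9%, against 11.4%). These genes respond to shared signals and are not independent of one another, so the counts describe these 6 samples only. The mean deviation from the control mean, over the 38 genes on the log2(FPKM + 1) scale, was 0.20, -0.08 and -0.11 among controls against 0.38, -0.04 and 0.01 after knockdown. Only knockdown sample 1 lay above the controls.

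**Figure D3:**
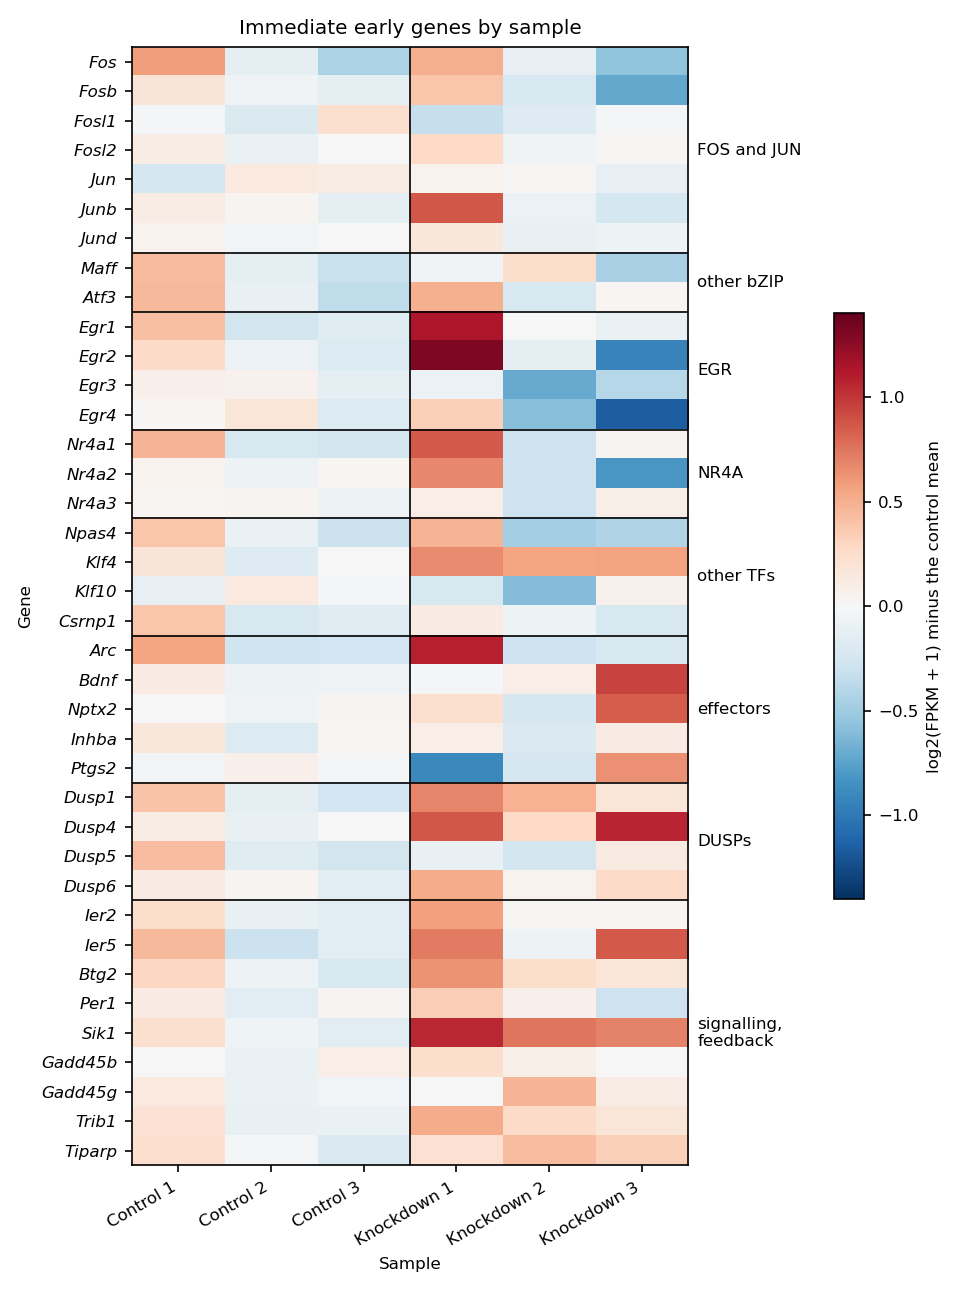
log2(FPKM + 1) minus the mean of the 3 controls (colour, red above and blue below) for the 38 genes (rows, grouped by role) in the 6 samples (columns). Control sample 1 and knockdown sample 1 are red over most rows of transcription factors, Bdnf, Nptx2 and Ptgs2 are red in knockdown sample 3, and Sik1, Klf4 and Dusp4 are red in all 3 knockdown samples.

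Spread was also wider than for other genes. The median SD of log2(FPKM + 1) over the 38 genes was 0.18 among controls and 0.319 among knockdown samples, against 0.102 and 0.144 over all genes tested. The knockdown SD exceeded the control SD for 27 of the 38 genes (71.1%), a share near the 66.0% of all genes tested. Without knockdown sample 1 the median log2 fold change was -0.06 and 23 of the 38 genes had negative values, and without control sample 1 it was 0.22. Knockdown sample 1 also held the highest value of all 7 microglial markers, at a summed 672 FPKM against 434 and 425 in the other knockdown samples, and the lowest dentate granule cell sum.

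**Figure D4:**
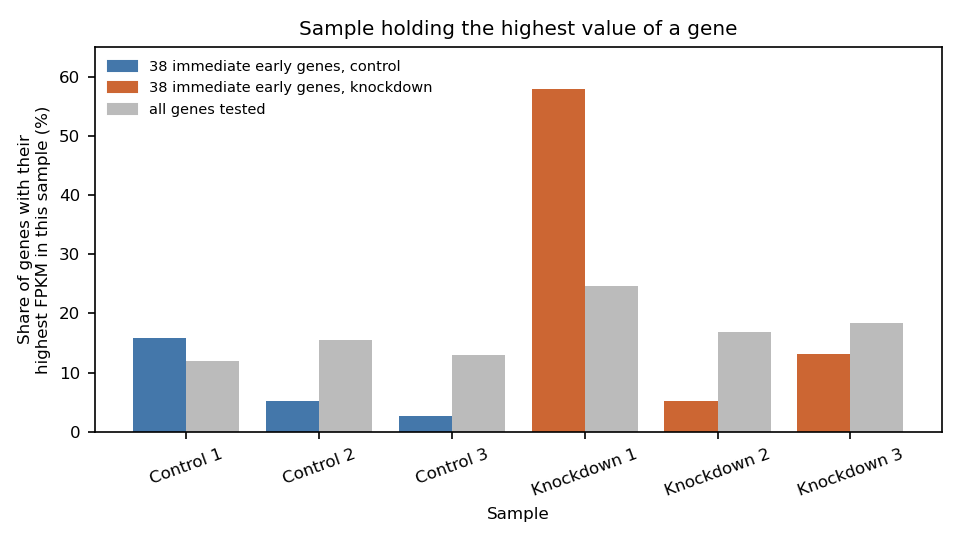
Share of genes (vertical axis, percent) whose highest FPKM of the 6 samples fell in each sample, for the 38 immediate early genes (blue in controls, orange in knockdown samples) and for all 14012 genes tested (grey). Knockdown sample 1 held 57.9% of the immediate early genes and 24.6% of all genes.

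FOS and JUN proteins pair to form the AP-1 transcription factor, and 0 of these 7 genes passed the test. Fos, the most widely used marker of recent neuronal firing, stood at 11.3, 6.41 and 4.99 FPKM among controls against 10.6, 6.52 and 4.54 after knockdown. Its groups spanned nearly the same range, and the first sample of each was about as high as the other. The log2 fold change was -0.06 (SE 0.34). Fosb, whose splice form delta FosB accumulates with repeated activity, had 4.09, 3.36 and 3.12 against 4.89, 2.86 and 1.75 FPKM, so the highest and the lowest value were both knockdown samples. Junb, an inducible JUN, had 37.9, 36.3 and 31.9 against 65.1, 33.4 and 29.7 FPKM, with knockdown sample 1 alone above the controls, on 2654 reads. Jun was the most abundant of the 7 per length, at 33.3, 43.8 and 42.6 against 41.0, 40.1 and 36.5 FPKM, and here control sample 1 was the lowest of all samples. Fosl2 (8.17 to 10.9 FPKM over the 6 samples) and Jund (6.53 to 8.01) varied little, and Jund is known as the JUN expressed without stimulation. Of the exon bases of Jund, 52.6% overlap a gene on the opposite strand. Fosl1 stood at 4.72 to 7.34 FPKM, a level that is uncertain because 57.2% of its exon bases lie within exons of Ccdc85b on the opposite strand, itself at 134 FPKM, and the library protocol records no step that keeps strands apart.

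None of the 4 EGR zinc finger factors passed the test, and they differed in how far the samples spread. Egr1, also called Zif268 and needed for lasting long-term potentiation, had 58.9, 36.3 and 38.8 FPKM among controls against 96.5, 43.6 and 40.7 after knockdown. Its log2 fold change of 0.34 (SE 0.34, adjusted p = 0.597 in limma) became -0.05 without knockdown sample 1. Egr2 spanned a ratio of 15.4 between its highest and lowest sample, more than any other of the 38 genes, with 2.12, 1.46 and 1.28 against 5.44, 1.38 and 0.355 FPKM, and both ends lay in the knockdown group. The lowest value rests on 21 reads and the highest on 328. Egr4, a member found mainly in the nervous system, had 21.5, 23.9 and 18.5 against 27.0, 13.7 and 8.95 FPKM, with 2 knockdown samples below all controls and knockdown sample 1 above them. Egr3 had 34.7, 34.3 and 30 against 31.1, 19.8 and 24.8 FPKM, the only gene of the 38 that was lower at an unadjusted p under 0.05 (log2 fold change -0.39, SE 0.16, adjusted p = 0.19 in limma). Its sign held in all 16 alternatives, between -0.55 and -0.24.

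NR4A genes encode orphan nuclear receptors that act in memory consolidation, and none of the 3 passed. Nr4a1 (Nur77) followed the pattern of Egr1, at 53.4, 32.3 and 31.7 FPKM among controls against 69.7, 30.9 and 38.9 after knockdown. Nr4a2 (Nurr1) was nearly even among controls, at 14.7, 13.5 and 14.5 FPKM, while knockdown samples 1 to 3 stood at 23.2, 11.5 and 7.63. The group means of Nr4a2 were therefore alike, at a ratio of 0.995, with an SD of 8.13 FPKM among knockdown samples against 0.642 among controls. Nr4a3 ranged from 13.0 to 17.2 FPKM.

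The remaining transcription factors ranged from 0.878 FPKM (Atf3) to 11.1 FPKM (Klf10) in single samples. Npas4, a neuron-restricted factor that is induced by calcium entry and shapes inhibitory synapses, had 5.84, 3.91 and 3.23 FPKM among controls against 6.23, 2.74 and 2.91 after knockdown. Its first sample was again the highest of each group. Klf10, a TGF-beta-inducible repressor, had 9.2, 11.1 and 9.89 against 8.43, 6.22 and 10.5 FPKM. Csrnp1 ranged from 3.25 to 5.51 FPKM. Maff, a small MAF protein, had 3.5, 2.01 and 1.65 against 2.18, 2.92 and 1.41 FPKM. Atf3, a factor that rises in injured or stressed neurons, ranged from 0.878 to 2.38 FPKM with the highest value in knockdown sample 1 and the ratio of group means at 1.11. None of these 5 passed the test.

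Genes that act at the synapse or are secreted split by sample. Arc, which drives removal of AMPA receptors from the synapse, was the most abundant of the 38 genes per length, at 77.7, 43.1 and 43.5 FPKM among controls against 113, 42.9 and 45.0 after knockdown. In 4 of the 6 samples Arc was nearly constant, and the first sample of each group stood higher, at 1.79 and 2.56 times the mean of the other two. Bdnf, the neurotrophin, had 6.05, 5.17 and 5.3 against 5.39, 5.95 and 11.5 FPKM. Nptx2, a secreted pentraxin that clusters AMPA receptors on interneurons, had 15.8, 15.2 and 16.2 against 18.5, 13.2 and 29.1 FPKM. Ptgs2, which encodes the prostaglandin synthase COX-2, had 5.2, 5.65 and 5.22 against 2.39, 4.4 and 8.93 FPKM. For these last 3 genes the controls were close together and knockdown sample 3 was the highest of the 6, whereas knockdown sample 1, the highest for Arc, was the lowest for Ptgs2. Inhba, the activin subunit, stood at 1.65 ± 0.312 and 1.66 ± 0.31 FPKM (SD, n = 3) in control and knockdown samples.

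Of the phosphatases that switch off MAP kinases, Dusp4 was described above and the other 3 overlapped between groups. Dusp6, which acts on ERK in the cytoplasm, had 22.2, 21.1 and 18.4 FPKM among controls against 29.9, 21.2 and 24.9 after knockdown (log2 fold change 0.28, SE 0.13, adjusted p = 0.26 in limma). Dusp1, a nuclear phosphatase for p38 and JNK, had 15.1, 10.2 and 9.12 against 18.7, 16.1 and 12.7 FPKM, so that control sample 1 alone reached into the knockdown range (log2 fold change 0.45, SE 0.20, adjusted p = 0.233). Without control sample 1 its log2 fold change was 0.65. Dusp5, a nuclear ERK phosphatase, was highest in control sample 1, at 26.1 FPKM, and between 15.8 and 21.0 FPKM in the other samples.

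The last group holds 9 genes, kinases, cell cycle and stress regulators with feedback roles. All 9 had positive log2 fold changes, from 0.04 for Per1 to 0.83 for Sik1, and Sik1 alone passed. Of all 14012 genes tested, 7449 had positive values. Without knockdown sample 1, Per1 stood at -0.11 and the others stayed positive. The role groups were chosen with earlier results known, so the count is a description only. Per1, a clock gene that CREB also induces, was the most abundant at 24.7, 20.4 and 23.4 FPKM among controls against 29.1, 24.0 and 18.4 after knockdown, and its highest and lowest values were both knockdown samples. Trib1, a pseudokinase, had 3.78, 2.87 and 2.92 against 5.0, 4.01 and 3.69 FPKM, and only control sample 1 and knockdown sample 3 crossed (log2 fold change 0.32, SE 0.13, adjusted p = 0.201 in limma). Tiparp, a mono-ADP-ribosyltransferase that represses the aryl hydrocarbon receptor, had 5.24, 4.2 and 3.6 against 5.15, 6.16 and 5.69 FPKM (0.33, SE 0.13, adjusted p = 0.185). Btg2, an antiproliferative cofactor of mRNA deadenylation, had 8.54, 6.43 and 5.74 against 11.1, 8.27 and 7.76 FPKM. In Btg2, as in Trib1, Tiparp and Dusp1, control sample 1 was the only control that reached into the knockdown range. Ier5 had 20.5, 11.8 and 13.2 against 25.1, 14.0 and 27.5 FPKM. Ier2 ranged from 2.96 to 5.52 FPKM with its highest value in knockdown sample 1. The stress sensors Gadd45b and Gadd45g, which take part in active DNA demethylation in neurons, stood at ratios of 1.09 and 1.16.

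Promoters of the 6 genes below are shown because CREB and SRF sites are the elements through which this class of genes is known to be induced. Fos, Egr2, Nr4a1, Npas4 and Dusp1 were highest in the first sample of each group, and Klf4 was higher in all 3 knockdown samples. All 6 promoters shown hold the core of the CREB site, which depends on the genes chosen for display. Of the 28 genes with promoters at hand, 18 hold it. Egr2 has several promoters, and those starting at chr10:67535249 and chr10:67537316 lack the core. A link between site and pattern was not tested. RefSeq promoters (build GRCm38.p6) were at hand for 28 of the 38 genes, 44 promoters in all, and not for Sik1, Dusp4, Arc or Egr1 among others. Each line gives the 250 bases before the start of transcription, 5′ to 3′ on the strand of the gene. Capitals mark the CREB site TGACGTCA, its core TGACG (which the full site contains on both strands) or, in Egr2, also the CArG box bound by SRF, each found on either strand. The coordinates are chr12:85473640-85473889 (plus strand) for Fos, chr10:67537619-67537868 (plus) for Egr2, chr15:101266596-101266845 (plus) for Nr4a1, chr19:4989972-4990221 (minus) for Npas4, chr17:26508473-26508722 (minus) for Dusp1 and chr4:55532476-55532725 (minus) for Klf4.
Fos: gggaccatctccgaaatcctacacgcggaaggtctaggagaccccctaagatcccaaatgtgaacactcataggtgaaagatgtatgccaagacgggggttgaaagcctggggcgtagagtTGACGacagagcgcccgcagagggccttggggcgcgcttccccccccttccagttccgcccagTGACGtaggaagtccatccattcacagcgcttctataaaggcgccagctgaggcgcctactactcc
Egr2: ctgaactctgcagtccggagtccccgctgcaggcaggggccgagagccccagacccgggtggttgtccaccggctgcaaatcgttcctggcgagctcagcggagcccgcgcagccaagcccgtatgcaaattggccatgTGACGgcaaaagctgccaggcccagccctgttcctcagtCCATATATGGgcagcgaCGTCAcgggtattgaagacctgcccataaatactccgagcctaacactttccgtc
Nr4a1: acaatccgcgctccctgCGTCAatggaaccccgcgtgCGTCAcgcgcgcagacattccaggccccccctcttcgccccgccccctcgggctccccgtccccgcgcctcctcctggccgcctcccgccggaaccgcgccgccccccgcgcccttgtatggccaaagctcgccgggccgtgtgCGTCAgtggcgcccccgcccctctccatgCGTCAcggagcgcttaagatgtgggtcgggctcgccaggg
Npas4: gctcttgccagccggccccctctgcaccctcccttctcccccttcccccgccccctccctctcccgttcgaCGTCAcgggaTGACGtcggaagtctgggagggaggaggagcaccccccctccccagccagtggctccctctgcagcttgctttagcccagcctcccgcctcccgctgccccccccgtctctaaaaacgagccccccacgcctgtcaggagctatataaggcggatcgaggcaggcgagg
Dusp1: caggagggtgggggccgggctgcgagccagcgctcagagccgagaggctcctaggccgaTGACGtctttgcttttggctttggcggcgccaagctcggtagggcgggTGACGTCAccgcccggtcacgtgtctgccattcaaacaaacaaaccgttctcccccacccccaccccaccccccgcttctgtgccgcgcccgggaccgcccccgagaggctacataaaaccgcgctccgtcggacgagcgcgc
Klf4: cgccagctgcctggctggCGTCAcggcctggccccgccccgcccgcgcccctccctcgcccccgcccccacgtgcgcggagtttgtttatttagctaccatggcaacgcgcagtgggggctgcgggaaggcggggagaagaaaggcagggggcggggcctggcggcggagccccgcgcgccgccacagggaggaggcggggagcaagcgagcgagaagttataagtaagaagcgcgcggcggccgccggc

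The core TGACG was present in 25 of the 44 promoters (56.8%), from 18 of 28 genes, and in 17.8% of all 32851 promoters of this length. Fos carried 2 copies, Nr4a1 carried 4, and Klf4 a single copy 232 bases before its start. The full site TGACGTCA was present for Btg2, Dusp1 and Maff (6.82% of the 44 promoters, 1.55% of all), and in Dusp1 it starts 143 bases before the start of transcription. A CArG box was found for Egr2 and Dusp5 (11.4% of the 44 promoters and 1.47% of all), where 4 of the 5 promoters concerned belong to alternative starts of Egr2, 3 of them overlapping. The AP-1 site TGAGTCA was present in 1 of the 44 (2.27%, against 4.46%), as was the EGR site GCGTGGGCG (2.27%, against 0.536%). Genes that hold the core peaked in different samples, Klf4 in knockdown sample 1, Bdnf in knockdown sample 3 and Fos in control sample 1. Among genes whose promoters at hand lack it, Dusp6, Fosl2 and Jund were highest in the first sample of each group. Jun, Ier5 and Gadd45g, which also lack it, were not. A match is a run of letters only and says nothing on binding in these samples. Bases further upstream than 250 were not searched, so a gene without a match here, Fos for the CArG box included, may hold one there.

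Other genes of the same pathway gave the following picture. Among 27 further activity-induced genes that were tested, 0 were called (1.43% of all genes tested), and 7 were higher and 2 lower at an unadjusted p under 0.05 in limma. At that unadjusted threshold 15.7% of all genes tested were higher and 7.98% lower. Without overlap, 7 of the 27 were higher and 2 lower, against 18.0% and 11.8% of all genes tested, and the median log2 fold change was 0.15. Pdyn, the precursor of dynorphin, had 4.4, 5.15 and 4.59 FPKM among controls against 16.2, 7.96 and 13.3 after knockdown (adjusted p = 0.0509 in limma). Rgs4, a brake on G protein signalling, had 36.6, 38 and 34.0 against 56.1, 66.3 and 118 FPKM. The highest knockdown sample was sample 3 for 12 of the 27 and sample 1 for 11, against 31.0% and 35.7% of all genes tested. Some further genes of the list were chosen after their values were seen. Npy, neuropeptide Y, stood at 244 FPKM in knockdown sample 3 and at 49.2 to 66.3 FPKM in the other samples, Scg2 at 113 against 53.8 to 83.0, and Vgf at 151 against 92.1 to 121. Other genes for peptides and secretory granules differed: the tachykinin precursor Tac1 (1.43 FPKM) and the prohormone protease Pcsk1 (2.66 FPKM) were lowest of all 6 samples in knockdown sample 3, as was Homer1 (6.79 FPKM), whose short form is induced by activity.

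Upstream components were described by 4 lists. Of 26 genes for calcium entry and kinases, 0 were called (1.43% of all genes tested), and 1 were higher and 8 lower at an unadjusted p under 0.05 in limma. At that unadjusted threshold 15.7% of all genes tested were higher and 7.98% lower, shares that serve for the other lists below as well. Without overlap, 9 of the 26 were lower and 1 higher, against 11.8% and 18.0% of all genes tested, and the median was -0.10. Map2k1, the kinase MEK1 that activates ERK, had 91.0, 95.7 and 90.7 FPKM among controls against 53.9, 62.5 and 69.6 after knockdown, a ratio of 0.671 with an adjusted p of 0.05003 in limma. Rps6ka1, a kinase of the RSK family, stood at 1.64 times the control mean (adjusted p = 0.064). Among 9 genes for CREB and its coactivators, 0 were called, 1 were higher and 1 lower at an unadjusted p under 0.05, and the median was 0.08. Crtc1, one of the CRTC coactivators that SIK1 phosphorylates, had 32.2, 32.1 and 34.2 against 24.1, 21.9 and 25.5 FPKM, a ratio of 0.726 with an adjusted p of 0.05003 in limma. Crtc2 and Crtc3 overlapped between groups, at ratios of 0.939 and 1.12. Atf1 stood at a ratio of 1.28 (adjusted p = 0.186). Of 6 genes for SRF and its partners 0 were called (1 higher and 0 lower at an unadjusted p under 0.05), with a median of -0.15, Elk3 at 1.95, 1.86 and 1.8 against 4.69, 2.95 and 4.21 FPKM (0.0503) and Elk1 at a ratio of 0.82 (0.213). The 3 MEF2 factors had a median of -0.20 and 0 calls (0 higher and 0 lower at an unadjusted p under 0.05), with Mef2c at a ratio of 0.823 and Mef2a at 0.852 (0.445 and 0.478). Of the 8 general neuronal markers, 7 had negative log2 fold changes as well (median -0.19), and their part in the values of these lists was not tested.

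**Figure D5:**
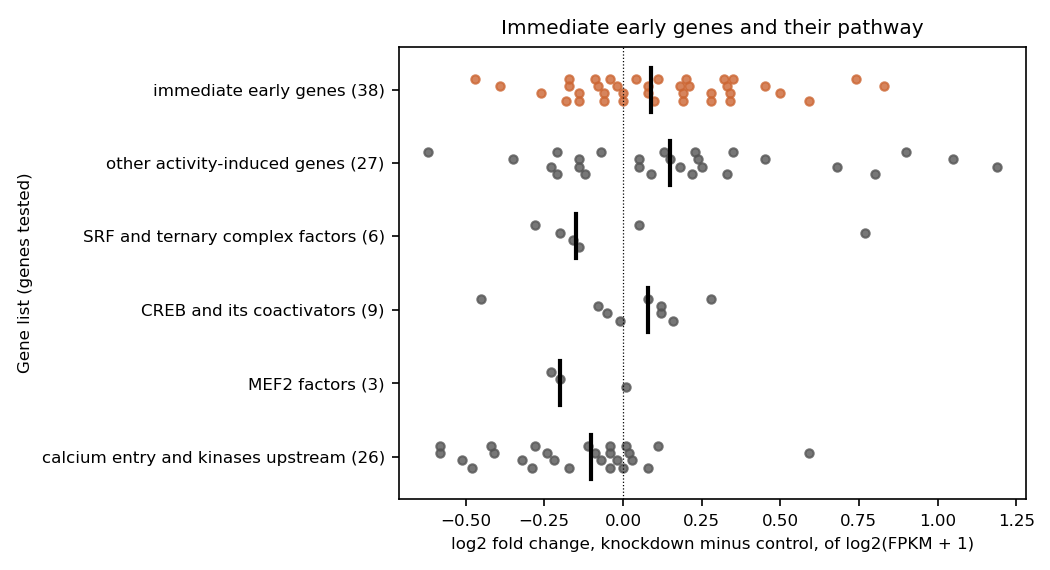
Log2 fold change (horizontal axis, knockdown minus control on log2(FPKM + 1)) of each gene tested in the immediate early gene set (orange) and in 5 lists of its pathway (grey), with a black bar at each median. The medians are 0.09 for the immediate early genes, 0.15 for other activity-induced genes, -0.15 for SRF and its partners, 0.08 for CREB and its coactivators, -0.20 for MEF2 factors and -0.10 for calcium entry and kinases.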

How the data were processed

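Messenger RNA was measured in 6 samples of mouse hippocampus, 3 control and 3 knockdown. Per the labels' protocols, 1.5 µg of RNA per library was enriched with oligo(dT) beads, fragmented, randomly primed and size-selected at about 350 bp, with no step that marks the strand. The authors deposited FPKM values per gene, and per the submitters' processing notes the build was mm10. For aligner and counter, the sources used here name none. Reads were recovered as FPKM times the exon length of the gene in GENCODE M21, scaled by the step that 1 read is worth in each sample. In each sample 90.9% to 91.1% of values came within 0.01 reads of a whole number, as did all 6 values for 30 of the 38 genes.

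The test used limma 3.58.1 (R 4.3.3) on log2(FPKM + 1), for genes whose mean reached 1 FPKM, with group as the only term, two-sided moderated statistics and a variance trend over expression, and calls needed a Benjamini-Hochberg adjusted p under 0.05 over all 14012 genes. The pseudocount of 1 understates changes of low genes, and ratios are of group means in FPKM. The fit was first tested on simulated data.

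The members, role groups and pathway lists were chosen with earlier results of these data known. Values in every sample were to be given for genes called or without overlap and for the most abundant gene of each role group, and of the pathway lists the called genes and the 2 of smallest p in each were to be named; further genes, those of the marker lists included, were named after their values were seen. Other symbols (Mrtfa, Mrtfb, Ccn1) were found under older names, and Baz1a was under 1 FPKM. The other marker lists gave medians of 0.11 (astrocytes), 0.17 (oligodendrocytes), -0.24 (CA1 and CA3), -0.59 (dentate granule cells) and -0.08 (blood, 2 genes tested). The astrocyte median covers genes that differed. Aqp4 and Gja1 were called higher, at ratios of 2.64 and 1.7 (adjusted p = 0.0452 and 0.0432 in limma). Aldoc was lower without overlap, at 0.74, and the rest of that list overlapped. Alternatives were other pseudocounts, filters, scalings and variance settings, voom on the recovered reads, the replicate number as a block and each sample left out.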

Additional observations from a re-analysis of the deposited data

How the results depend on the processing

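Of 16 alternatives, each immediate early gene could be fitted in 14 to 16; 17 of the 38 kept the sign of their log2 fold change in all of theirs and 21 did not, and none that changed sign was called. Sik1, Klf4 and Dusp4 kept theirs. The count of these genes called higher, 1 in the analysis as reported, was 0 with no filter, after quantile normalization, with equal FPKM sums, with median ratio scaling, without the variance trend and with the replicate number as a block, and 0 to 1 when a sample was left out (Dusp4 without knockdown sample 2). It was 1 with the other pseudocounts and a filter at 5 FPKM (Sik1) and with voom (Klf4; reads of Sik1 could not be recovered as whole numbers). None was called lower in any. The median over the 38 genes ran from -0.06 to 0.22 when a sample was left out and from 0.03 to 0.11 in the other settings that tested all 38; it was 0.15 over the 28 genes left by the filter at 5 FPKM and 0.11 over the 30 in voom.

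Over all genes, calls of 168 higher and 32 lower became 290 and 64 at a pseudocount of 0.1, 274 and 64 at 0.5, 170 and 65 with a filter at 5 FPKM, 1 and 2 with equal FPKM sums, 9 and 6 with median ratio scaling, 498 and 96 with voom, and 0 and 0 with no filter, quantile normalization, no variance trend or the block. Leaving out a sample gave 0 to 160 higher and 0 to 30 lower. Over all genes tested, same-numbered samples did not deviate together from their group means (r = -0.00837 to 0.0502). Among the 38 genes, sample 1 was the highest of both groups for 22 (57.9%, against 11.4% of all genes tested). With 3 samples in each group, these values cannot decide whether the numbers pair the samples. Depth limits the lowest genes, such as Egr2 with 21 reads in knockdown sample 3.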
